A study of Mus musculus with 19 samples.

Results

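The comparison is of induced pluripotent stem cells (iPSC) of 2 inbred mouse strains grown in the same medium: 4 WSB/EiJ clones and 2 129S1/SvImJ clones, 6 of the 19 libraries of the series, chosen by their titles. The study asked which inbred strains yield iPSC that resemble embryonic stem cells (ESC) in standard serum and LIF medium, and it used 2iS for strains such as WSB/EiJ that did not, with 129S1/SvImJ as a control strain. All 6 clones came from fibroblasts of mid-gestation embryos, pooled within a litter, that were infected with a constitutive, Cre-excisable lentivirus carrying Oct4, Klf4, Sox2 and Myc, and they were freed of feeder fibroblasts before RNA was taken. The medium, 2iS, is serum and LIF medium with an inhibitor of GSK3B and an inhibitor of MEK. The WSB/EiJ clones were derived and kept in 2iS: clone 12 (male, passage 16), clone 23 (female, passage 16), clone 25 (male, passage 16) and clone 28 (female, passage 20). The 129S1/SvImJ clones, well 1 (male, passage 31) and well 17 (male, passage 30), were derived in ESC/LIF medium and later moved to 2iS. Strain, derivation medium and passage therefore go together and cannot be told apart, and the female clones are all WSB/EiJ. Each library is 1 clone, so a p-value measures the spread between clones, not between mice or litters.

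Mouse ESC and ESC-like iPSC represent the naive state of pluripotency, held by a network of transcription factors that includes Oct4 (Pou5f1), Sox2, Nanog, Esrrb, Klf4 and Tfcp2l1. LIF feeds this network through STAT3, inhibition of MEK blocks the differentiation signal that passes from FGF to ERK, and inhibition of GSK3B stabilises beta-catenin. Inbred strains also differ in many genes by inherited variants in regulatory DNA and in gene copy number, and such differences can be carried into any cell made from the strain.

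The counts have a feature that bears on every gene below. Between 95702 and 189587 read pairs per library were assigned to genes, which was 1.49% to 1.74% of the 6082886 to 12563534 uniquely aligned pairs, while 98.3% to 98.5% were recorded as lying on no gene. The library kit marks the strand, and the strand setting of the counting is not given in the sources used here. Of the 100 genes with the most counts, 90.0% shared exonic bases with another gene annotated in the reverse orientation, against 24.6% of all annotated genes in the files. A count can hold reads of the gene itself or of its opposite-strand partner, so a gene's level below means the counts recorded under its name. Had the counting used the strand setting opposite to that of the kit, the counts would be of reads antisense to each gene, and 0 counts would not show that its transcript was absent; this was not tested. A gene with 3 counts in 1 library corresponded to a CPM of 19.8 to 38.8 (CPM, the count scaled to a common library size of 1000000), which sets the lowest level that can be told from 0, and intervals and this floor cover counting error only. The titles matched the presence of Y-linked counts in 6 of 6 libraries, whereas the separate sex field of the records went against it in 4 of 6. Of 8 naive markers none was without counts, and their summed level was 1500 to 2220 CPM in WSB/EiJ and 2050 to 2690 CPM in 129S1/SvImJ. Of 6 markers of primed cells, 2 (Fgf5 and Pou3f1) were at 0 in all 6 libraries, and the sum was 51.7 to 198 CPM in WSB/EiJ and 84.8 to 102 CPM in 129S1/SvImJ. Of 15 fibroblast markers, 6 were at 0 in all 6 libraries, Col1a2 and Thy1 among them, and the sums overlapped, with 574 to 876 CPM in WSB/EiJ and 594 to 758 CPM in 129S1/SvImJ. Over broader lists the sums did not overlap. For 32 fibroblast genes, 15 of them at 0, they were 1022 to 1151 CPM in WSB/EiJ against 679 and 961 CPM. For 24 primed and formative genes, 4 of them at 0, they were 799 to 1051 CPM against 477 and 609.8 CPM. Sums of several other lists, given below, did not overlap either, and the part of any of these in the results was not tested. The 6 defining markers of primitive endoderm, Gata6 and Sox17 among the 4 of them at 0, held at most 2 counts together in any library, and 5 trophoblast markers at most 3.

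Among 2220 autosomal genes with enough counts to test, 103 differed between the strains (4.64% of those tested, edgeR quasi-likelihood test, adjusted p under 0.05), 61 of them higher (2.75%) and 42 lower (1.89%) in WSB/EiJ, or 81 and 35 when libraries were scaled by their uniquely aligned pairs. The tested genes are 10.01% of the autosomal genes in the files. In 101 of the 103 genes all 4 WSB/EiJ libraries lay on one side of both 129S1/SvImJ libraries, an order found in 634 (28.6%) of all tested genes. The 2 exceptions, Rbfa and Smurf1, are named here because they overlap. The median log2 fold change was 2.09 in the genes that were higher and -1.66 in those that were lower, with a median of -0.01 over all tested genes, and 25 genes differed by more than 3 on the log2 scale. Exons on the opposite strand were present in 65 of the 101 called genes with an annotated position (64.4%) and in 53.5% of the tested genes. Of the opposite-strand partners of called genes, 16 could be tested and 0 passed by edgeR or DESeq2. The unadjusted edgeR p was under 0.05 in 3 of them and in 388 of all 2220 tested genes. With the strand setting unknown, reads filed under a partner may come from the called gene's own strand. Partner values, here and below, therefore cannot tell which gene of a pair changed, and this was not tested. The count depends on both 129S1/SvImJ clones: it was 30 without well 1 and 52 without well 17, and with the 2 male WSB/EiJ clones alone it was 262. With sex as a covariate it was 136, of which 88 were among the 103.

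**Figure D1:**
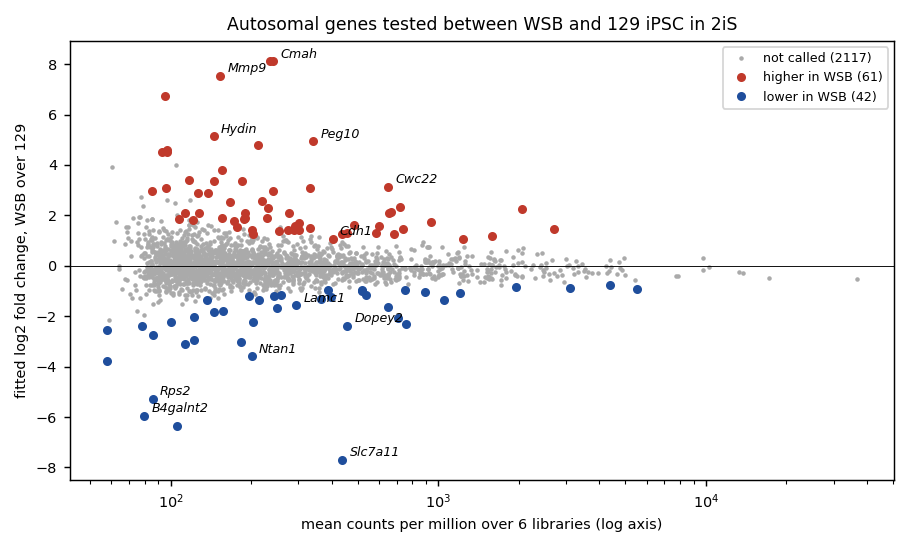
Fitted log2 fold change (WSB/EiJ over 129S1/SvImJ, vertical axis) against the mean CPM of the 6 libraries (horizontal log axis) for 2220 autosomal genes, with the 61 called higher in red, the 42 called lower in blue and the others in grey. Slc7a11 lies apart at -7.69, and the genes at the top, such as Mmp9 and Cmah, have no counts in 129S1/SvImJ, so that their fitted values depend on the prior count.

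The gene with the lowest p was Slc7a11, which encodes the cystine-importing subunit of the cystine/glutamate antiporter that supplies cysteine for glutathione. It was hardly counted in WSB/EiJ, with counts of 0, 1, 0 and 1 in clones 12, 23, 25 and 28, and abundant in 129S1/SvImJ, with 115 and 150 counts in wells 1 and 17 (1220 and 1386 CPM). The groups were far apart and the clones within each differed by little beside that gap. The pooled level was 260.3-fold higher in 129S1/SvImJ, with a 95% exact counting interval of 71.3 to 2160 (edgeR adjusted p = 2.78e-08). The gene lies on chromosome 3, 49892526 to 50443614, minus strand (GRCm38) and has no annotated exons on the opposite strand. It passed the test without any single clone, with an adjusted p of at most 4.87e-07.

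The promoter of Slc7a11 is shown because this gene had the lowest p. In the RefSeq promoter table (GRCm38.p6, the C57BL/6J reference, not the alleles of these strains), chr3:50443564-50443863 on the minus strand holds 2 matches, 1 on each strand, to TGATGCAA, the core of the sequence bound by the stress-response factor ATF4, shown in capitals. This string, searched on both strands, occurs in 294 of 32851 promoter windows of the same length (0.895%), and a match is not evidence of binding.
Slc7a11: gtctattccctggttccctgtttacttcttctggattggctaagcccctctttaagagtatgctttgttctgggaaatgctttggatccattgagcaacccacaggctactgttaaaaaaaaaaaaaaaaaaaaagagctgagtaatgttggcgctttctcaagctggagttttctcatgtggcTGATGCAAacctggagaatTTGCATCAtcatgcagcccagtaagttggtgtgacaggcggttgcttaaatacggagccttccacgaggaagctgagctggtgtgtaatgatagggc

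3 further genes were at or near 0 in WSB/EiJ and clearly counted in 129S1/SvImJ. E130003G02Rik, an antisense transcript that shares 1307 bp of exons with the NMDA receptor gene Grin1, had 0, 0, 0 and 1 counts in the WSB/EiJ clones and 37 and 25 in 129S1/SvImJ (adjusted p = 3.93e-05). B4galnt2, a glycosyltransferase of cell-surface carbohydrates, had 0, 0, 0 and 1 counts against 23 and 24 (adjusted p = 0.000165). Both were seen in WSB/EiJ only as 1 read pair of clone 28. Rps2, a protein of the small ribosomal subunit, had 0, 1, 1 and 0 counts against 19 and 31 (adjusted p = 0.000218), and its call was lost without well 17 (adjusted p = 0.0878). The pooled ratios were 122 (21.07 to 4887) for E130003G02Rik, 92.3 (15.8 to 3723) for B4galnt2 and 49.1 (12.9 to 417) for Rps2, each 129S1/SvImJ over WSB/EiJ with a 95% exact counting interval.

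Some other ribosomal protein genes were also called. Of 33 tested genes of this kind, a list drawn up by name after the calls were seen, 4 were lower (1.89% of all tested genes were), 0 were higher by edgeR or DESeq2 (1 at an unadjusted p under 0.05) and the median log2 fold change was -0.33. Besides Rps2 these were Rpl21, with 6.59, 12.9, 0 and 22.5 CPM in WSB/EiJ and 148 and 157 CPM in 129S1/SvImJ, Rpl15, with 52.7, 12.9, 25.0 and 22.5 CPM and 318 and 249.5 CPM, and Rps26, with 59.3, 155, 25.0 and 78.8 CPM and 350 and 203 CPM. The groups did not overlap in any of them, which the rule for naming genes required of all but Rps26. Rpl21 lost its call without either 129S1/SvImJ clone. These genes have many near-identical processed copies in the genome, so the reads counted for them are uncertain, and the opposite-strand neighbour of Rpl15, Nkiras1, did not pass (log2 fold change -0.10, adjusted p = 0.887).

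Ntan1, an amidase of the N-degron pathway of protein turnover on chromosome 16, was lower at 52.7, 25.9, 37.5 and 45.0 CPM in WSB/EiJ against 583 and 462 CPM in 129S1/SvImJ (log2 fold change -3.59 ± 0.33 SE, adjusted p = 1.27e-05). Its exons share 713 bp with Pdxdc1 on the opposite strand, for which the log2 fold change was -0.29 (adjusted p = 0.574). Dopey2, a protein of endosome-to-Golgi traffic on the same chromosome, was counted at 138, 246, 213 and 180.1 CPM against 944 and 1026 CPM (log2 fold change -2.38 ± 0.26 SE, adjusted p = 3.93e-05). Both genes kept their call without any single clone. The long noncoding RNA 1500004A13Rik, on chromosome 3, had 376, 285, 325 and 360.2 CPM against 1411 and 1478 CPM (log2 fold change -2.08 ± 0.22 SE, adjusted p = 3.93e-05), with a spread within each strain that is small beside the gap. It shares 2897 bp of exons with 5830417I10Rik on the opposite strand, which held 1 to 5 counts per library.

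AW495222, antisense to the choline-breakdown enzyme gene Dmgdh, ranged from 6.59 to 104 CPM in WSB/EiJ and stood at 446 and 416 CPM in 129S1/SvImJ (adjusted p = 0.00104). Trappc12, a subunit of the TRAPP vesicle-tethering complex, had 46.1, 0, 37.5 and 56.3 CPM against 361 and 231 CPM (adjusted p = 0.00202), and A230070E04Rik had 19.8, 51.7, 37.5 and 11.3 CPM against 191 and 203 CPM (adjusted p = 0.0062). The 3 genes did not overlap between strains, which the rule for naming them required. Trappc12 lost its call without well 1 and A230070E04Rik without either well. Lamc1, the laminin gamma 1 chain of basement membranes, was lower at 191, 116, 138 and 259 CPM against 488 and 573 CPM (log2 fold change -1.56 ± 0.30 SE, adjusted p = 0.0062), a call lost without well 17 (adjusted p = 0.0798).

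Among the genes higher in WSB/EiJ, 4 had no counts in either 129S1/SvImJ library, so only a lower bound of the fold is given, from a floor of 3 counts over the pair. The lower limits of the 2-sided 95% exact counting interval of the ratio, which is stricter, were 18.8 for Gm16325, 12.4 for Mmp9, 16.9 for Cmah and 6.51 for 4930524B15Rik. Gm16325, antisense to 4930503B20Rik on chromosome 3, had 47, 15, 37 and 39 counts in clones 12, 23, 25 and 28 and was at least 23.4-fold higher in WSB/EiJ (adjusted p = 8.91e-05). Mmp9, a secreted matrix metalloproteinase on chromosome 2, 164940780 to 164955850, plus strand, had 35, 17, 14 and 26 counts and was at least 15.6-fold higher in WSB/EiJ (adjusted p = 0.000106). Both were counted in every WSB/EiJ clone, and Mmp9 was even among them, at 229.6 ± 48.4 CPM (SD, n = 4 clones). Cmah, the enzyme that makes the sialic acid Neu5Gc, had 10, 51, 13 and 50 counts and was at least 21.04-fold higher in WSB/EiJ (adjusted p = 0.0104). 4930524B15Rik had 7, 20, 15 and 7 counts and was at least 8.31-fold higher in WSB/EiJ (adjusted p = 0.0203). Cmah varied within the strain: the female clones 23 and 28 stood at 659.7 and 563 CPM and the male clones 12 and 25 at 65.9 and 163 CPM. Among the 103 called genes 16 had this order and 24 had it the other way round. The share of all tested genes with either order was not determined, so no sex pattern is read from these counts. The calls of Gm16325 and Mmp9 held without any single clone, while Cmah missed narrowly without well 1 (adjusted p = 0.0505) and 4930524B15Rik missed without either well (adjusted p up to 0.102).

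Cwc22, a splicing factor that also loads exon junction complexes onto messenger RNA, combined a high level with a low p. It stood at 830.2, 815, 1214 and 822 CPM in WSB/EiJ and 106 and 102 CPM in 129S1/SvImJ (log2 fold change 3.13 ± 0.33 SE, adjusted p = 3.93e-05), so that 3 clones were nearly equal and clone 25 was higher. The gene lies on chromosome 2, 77881159 to 77946375, minus strand, within a duplicated segment known to vary in copy number between mouse strains. Reads of near-identical copies cannot be assigned with certainty, and DNA copies were not measured here. Mylpf, the fast skeletal muscle myosin regulatory light chain, had 402, 504, 613 and 360.2 CPM against 31.8 and 73.9 CPM (log2 fold change 3.08 ± 0.41 SE, adjusted p = 0.000261), and Arl14epl had 270.2, 362, 350.4 and 270.1 CPM against 10.6 and 9.24 CPM (adjusted p = 3.93e-05). Arl14epl rested on 1 count in each 129S1/SvImJ library, for a pooled ratio of 30.8 (8.34 to 257).

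4 more genes had 1 count in the 2 129S1/SvImJ libraries together. Hydin, a protein of the axoneme of motile cilia, had 34, 24, 7 and 21 counts in WSB/EiJ (adjusted p = 0.00142). Hrnr, hornerin of the epidermal cornified envelope, had 27, 9, 6 and 18 counts (adjusted p = 0.0062), and its call was lost without well 17 (adjusted p = 0.0687). Slc26a1, a sulfate anion exchanger, had 25, 5, 10 and 17 counts (adjusted p = 0.00724), and Trpm3, a heat-activated cation channel, had 15, 10, 13 and 16 (adjusted p = 0.00549); both lost their call without well 1, and Slc26a1 also with DESeq2 (adjusted p = 0.0507). Every WSB/EiJ clone was above both 129S1/SvImJ clones in the 4 genes, which the rule for naming them required. The pooled ratio, WSB/EiJ over 129S1/SvImJ, was 43.8 (7.65 to 1749) for Hydin and 30.5 (5.28 to 1226) for Hrnr. The reference promoter of Hrnr (RefSeq, GRCm38.p6, chr3:93319499-93319798, plus strand) is shown as that of a tissue-restricted gene with no counts in most 129 libraries. It holds 1 match to TATAAA, in capitals, a string that is present on either strand in 13.6% of the 32851 windows.
Hrnr: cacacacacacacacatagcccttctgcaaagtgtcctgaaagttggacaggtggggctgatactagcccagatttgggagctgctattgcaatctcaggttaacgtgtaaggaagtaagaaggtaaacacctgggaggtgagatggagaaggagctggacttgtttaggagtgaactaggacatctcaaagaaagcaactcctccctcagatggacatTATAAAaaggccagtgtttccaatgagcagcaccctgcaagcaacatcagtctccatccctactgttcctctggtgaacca

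Peg10, a retrotransposon-derived gene expressed from the paternal allele and needed for the placenta, was the only called member of 13 tested imprinted genes and the single tested member of 16 trophoblast markers. Its level was 289.9, 1255, 188 and 281 CPM in WSB/EiJ, with clone 23 far above the other 3, against 0 and 27.7 CPM in 129S1/SvImJ (log2 fold change 4.93 ± 1.01 SE, adjusted p = 0.00921). The pooled counts were 181 against 3, which is 30.7-fold higher in WSB/EiJ with a 95% exact counting interval of 10.3 to 150.3. The call was lost without well 1 (adjusted p = 0.0798).

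**Figure D2:**
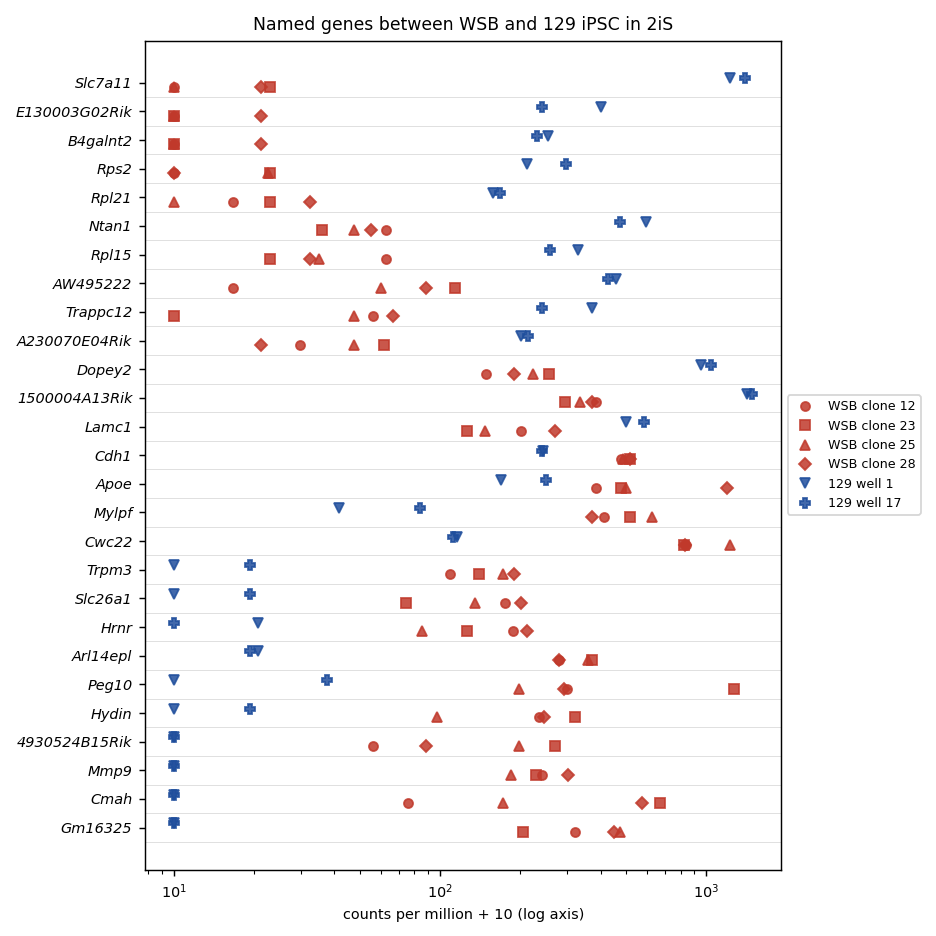
CPM plus 10 (horizontal log axis) of 27 called genes in each of the 6 libraries, WSB/EiJ clones in red and 129S1/SvImJ clones in blue, ordered from the lowest to the highest fitted fold change. In each gene the 4 red points lie on one side of both blue points, which the rule for naming genes required of all but Cdh1, Apoe and Lamc1. Points at 10 have no counts.

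The other libraries of the series, which were not part of the test, show for which of these genes the level followed the strain. They differ in medium and cell type, and values here are CPM on a scale set over all libraries. The 129 EpiSC are, by the study's methods, of a 129/Sv background and not 129S1/SvImJ. Slc7a11 was counted in every 129 library: at 1461, 2115, 1570 and 1616 CPM in iPSC wells 1, 5, 8 and 17 in ESC/LIF medium, 742 CPM in the ESC and 6759 CPM in epiblast stem cells (EpiSC). The WSB/EiJ ESC had 11.6 CPM, and the NOD/ShiLtJ female iPSC clones 7 and 52 had 74.6 and 78.5 CPM. Cwc22 was high in the WSB/EiJ ESC too, at 1523 CPM, and at 39.0 to 140.5 CPM in all 129 libraries and 70.6 to 127 CPM in the NOD/ShiLtJ ESC, EpiSC and female iPSC. Ntan1 was low in the WSB/EiJ ESC (105 CPM), whereas NOD/ShiLtJ resembled 129S1/SvImJ with 589 and 726 CPM in its female iPSC. Hrnr divided the strains in another way: it reached 1488 CPM in the WSB/EiJ ESC and 1224 CPM in the NOD/ShiLtJ ESC and had 0 counts in the 129S1/SvImJ ESC and the 129 EpiSC. Gm16325 and Mmp9 were at 860.3 and 477 CPM in the WSB/EiJ ESC and at or under 3 counts in every library of the other strains. B4galnt2 and Rpl21 had 1 and 0 counts in the WSB/EiJ ESC and 34 and 12 in the 129S1/SvImJ ESC.

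Other genes also varied within a strain, by medium or passage, clone or cell type. Peg10 was counted at 276, 430.1, 521 and 337 CPM in 129S1/SvImJ wells 1, 5, 8 and 17 in ESC/LIF medium, that is, wells 1 and 17 had 48 and 24 counts in ESC/LIF medium at passages 21 and 20 and 0 and 3 counts in 2iS. AW495222 went the other way, at 11.5, 17.6, 25.7 and 14.1 CPM in those 4 libraries, within the range of the WSB/EiJ clones, and 446 and 411 CPM in 2iS. Trappc12 stood at 57.5, 132, 109 and 14.1 CPM in wells 1, 5, 8 and 17 in ESC/LIF medium, and 361 and 228 CPM in 2iS. A230070E04Rik had 51.8 and 42.2 CPM in wells 1 and 17 there, but 685 and 238 CPM in wells 5 and 8, and 191 and 201 CPM in 2iS. Apoe was at 535, 816, 875 and 478 CPM in wells 1, 5, 8 and 17 in ESC/LIF medium, and 159 and 237 CPM in 2iS. E130003G02Rik was near 0 in the WSB/EiJ iPSC but had 64 counts in the WSB/EiJ ESC and 574 in the 129S1/SvImJ ESC. Hydin had 22 counts in the 129S1/SvImJ ESC, and 4930524B15Rik had 17 in 129S1/SvImJ well 8 in ESC/LIF medium. The series holds no WSB/EiJ library in ESC/LIF medium, so the strains cannot be compared there. In the ESC, 1 library of each strain, every gene of this paragraph had the direction seen in iPSC. WSB/EiJ against 129S1/SvImJ ESC was 23.25 against 286 CPM for AW495222, 349 against 107 CPM for Peg10 and 872 against 456 CPM for Apoe. The differences were not tested outside 2iS iPSC.

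**Figure D3:**
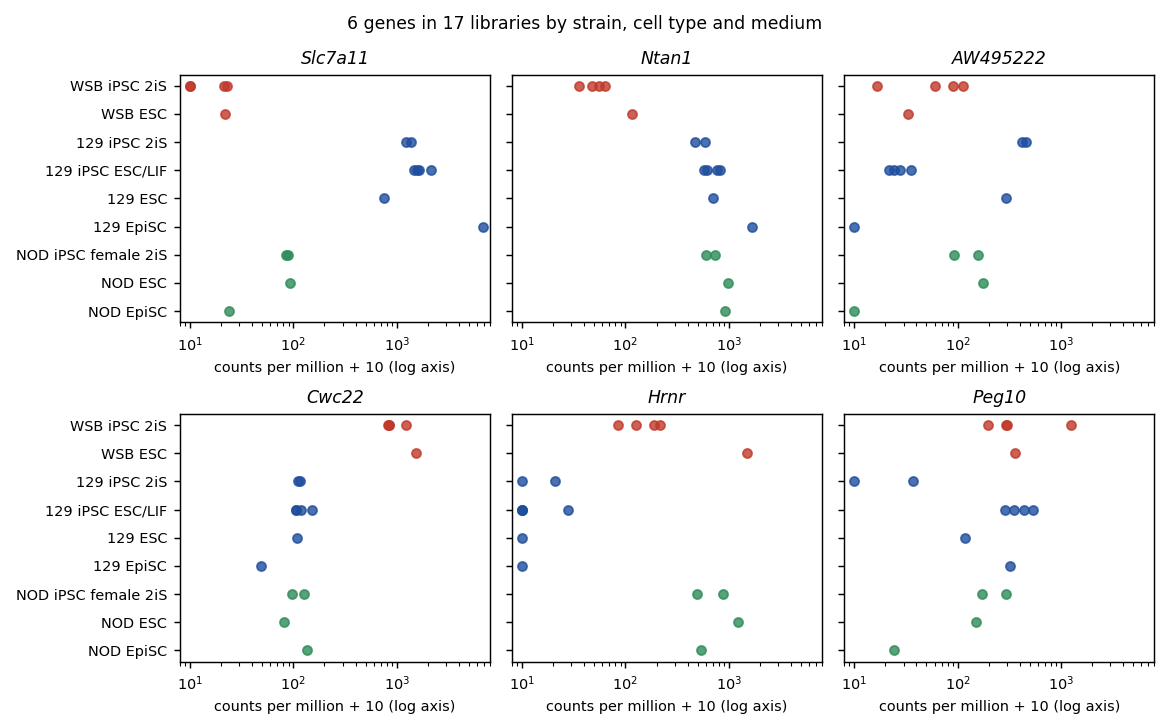
CPM plus 10 (horizontal log axis) of 6 genes in 17 libraries, 1 point per library, with WSB/EiJ in red, 129 (129S1/SvImJ, and 129/Sv for the EpiSC) in blue and NOD/ShiLtJ in green; the NOD/ShiLtJ male iPSC are not shown. Slc7a11 is high in every 129 library and Cwc22 in every WSB/EiJ library, while Peg10 is low only in the 129S1/SvImJ iPSC in 2iS and the NOD/ShiLtJ EpiSC.

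ESC of the same strains, 1 library each and therefore with no replicate check and no test, gave the direction in cells outside the test. Both ESC were kept in serum and LIF medium with inhibitors of GSK3B and MEK. Of the 61 genes called higher in WSB/EiJ iPSC, 52 (85.2%) were also higher in the WSB/EiJ ESC, and of the 42 called lower, 39 (92.9%) were lower. Among genes that were not called, the share was 55.6% of 1035 on the higher side and 57.7% of 1082 on the lower side. A difference of at least 1 on the log2(CPM + 20) scale in the same direction was present in 52.5% of the genes called higher and 52.4% of those called lower, against 6.57% and 8.04% of the genes not called. The 12 called genes that were not in the same direction included, as examples chosen after their values were seen, Nefh, Actg1, Tshz2, Rbfa and Prmt1. Tshz2 had 0 counts in the WSB/EiJ ESC and 4 in the 129S1/SvImJ ESC.

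None of the 4 reprogramming factors passed the test by edgeR or DESeq2 over all 6 libraries, and the unadjusted p was under 0.05 in 1, Klf4. Pou5f1 was at 771, 763, 876 and 946 CPM in WSB/EiJ and 732 and 656 CPM in 129S1/SvImJ (log2 fold change 0.27 ± 0.23, edgeR adjusted p = 0.579), and the log2 fold change of Sox2 was 0.05 ± 0.25, that of Klf4 -0.71 ± 0.29 and that of Myc 0.15 ± 0.38. Reads of the integrated lentivirus and of the endogenous genes were not told apart. Of 17 naive transcription factors 10 could be tested and 0 passed by edgeR or DESeq2 over all 6 libraries. The unadjusted edgeR p was under 0.05 in 3 of them, all lower in WSB/EiJ, and in 388 of all 2220 tested genes. Tbx3 had 119, 90.5, 175 and 214 CPM against 329 and 314 CPM without overlap (adjusted p = 0.0712), and Tfcp2l1 had 171, 233, 188 and 506 CPM against 414 and 573 CPM, with clone 28 inside the 129S1/SvImJ range (adjusted p = 0.216). Klf4 is the third (adjusted p = 0.207), again with clone 28 above the other WSB/EiJ clones. These 3 factors did pass in the edgeR fit of the male clones alone, 2 against 2: Tbx3 at a log2 fold change of -1.18 (adjusted p = 0.0117), Tfcp2l1 at -1.47 (adjusted p = 3.99e-05) and Klf4 at -0.90 (adjusted p = 0.0146). Tfcp2l1 also passed with sex as a covariate (adjusted p = 0.0139), and without clone 28 Tfcp2l1 and Tbx3 passed (adjusted p = 0.00811 and 0.0226) and Klf4 did not (adjusted p = 0.0576). The levels in 129S1/SvImJ differed by medium or passage. On the scale of all libraries, wells 1, 5, 8 and 17 in ESC/LIF medium had 132, 132, 212 and 126.5 CPM of Tbx3. They had 190, 298, 277 and 140.5 CPM of Tfcp2l1 and 218.5, 281, 457 and 154.6 CPM of Klf4. The strains were not tested against each other in that medium. Esrrb was at 237, 233, 213 and 304 CPM against 339 and 388 CPM (adjusted p = 0.302), and Nanog at 158, 155, 150.2 and 169 CPM against 95.5 and 129 CPM (adjusted p = 0.529). The remaining tested factors, Klf2, Zfp42, Sall4, Mybl2 and Zfp281, overlapped between strains and had log2 fold changes of 0.19 to 0.59. With SEs of 0.23 to 0.56 across the 13 genes, differences up to a log2 of about 1 could be missed at this depth. In simulated counts for the 2309 genes of the fit, with 1 common dispersion, 29.5% of the genes changed by a log2 of 1 were recovered.

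**Figure D4:**
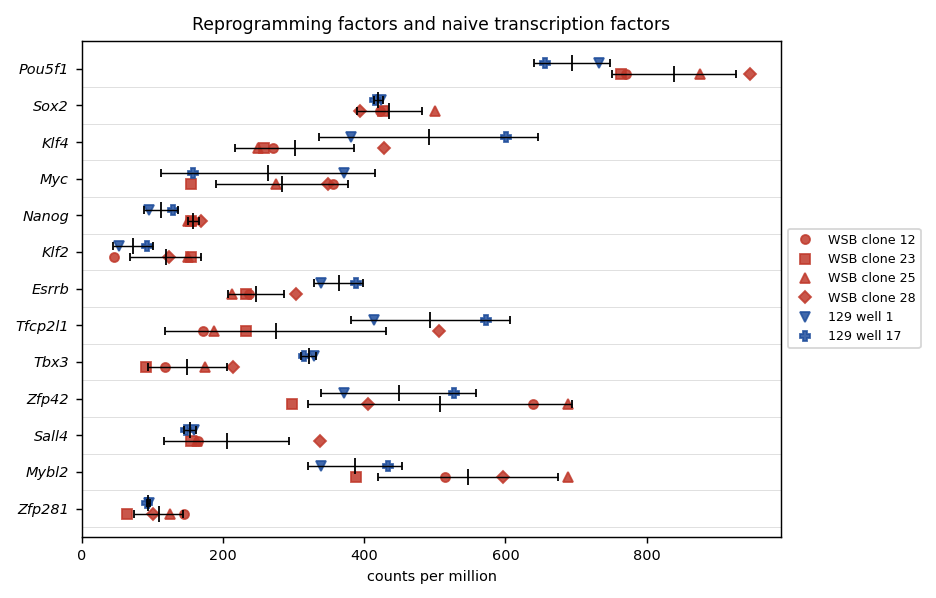
CPM (horizontal axis from 0) of the 4 reprogramming factors and 9 further naive transcription factors in each library, with vertical ticks at the group means and bars of 1 SD (n = 4 WSB/EiJ clones in red, n = 2 129S1/SvImJ clones in blue). The groups overlap or lie close together in most genes. In all 4 WSB/EiJ clones Tbx3 and Esrrb lie below both 129S1/SvImJ clones, and Pou5f1 and Nanog lie above both.

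Across 23 lists of genes of pluripotency, lineage, signalling and metabolism, 142 distinct genes could be tested and 5 were called (3.52%, against 4.64% of all tested genes): Slc7a11, Peg10, Cdh1, Apoe and Lamc1. Cdh1, the E-cadherin of epithelial and naive cells, was called among 14 tested pluripotency markers and 12 tested adhesion genes. It was even within each strain, at 468, 504, 476 and 506 CPM in WSB/EiJ and 233 and 231 CPM in 129S1/SvImJ (log2 fold change 1.07 ± 0.27 SE, adjusted p = 0.0313). The call was lost in 4 of the 6 fits without 1 clone and with DESeq2. Apoe, an apolipoprotein, was called with Lamc1 among the 4 tested genes of a broader list of 22 primitive endoderm genes, at 376, 466, 488 and 1182 CPM, highest in clone 28, against 159 and 240.2 CPM (log2 fold change 1.62 ± 0.45 SE, adjusted p = 0.0473). It lost its call without either 129S1/SvImJ clone, with sex as a covariate (log2 fold change 1.07, adjusted p = 0.126) and with at least 10 counts required in every library (adjusted p = 0.069). In the threonine, glycine and one-carbon list Slc7a11 was the only one of 12 tested genes to pass. In the lists with no called gene, 97 genes were tested, 0 passed by edgeR or DESeq2 over all 6 libraries and 13 had an unadjusted p under 0.05, against 388 of all 2220 tested genes. The 97 genes included 22 tested cell cycle genes with a median log2 fold change of -0.11, 19 of DNA methylation and Polycomb (0.14), 9 glycolysis enzymes (-0.15), 8 lipid synthesis enzymes (0.55), 3 ERK targets (0.21), 3 LIF/STAT3 targets (-0.71), 3 Wnt targets (0.23) and 3 fibroblast markers (0.05). Summed over all list members, some lists did not overlap between strains, an order that 28.6% of single tested genes had too. ERK targets had 912 to 1403 CPM in WSB/EiJ against 806 and 721 CPM, and Wnt targets 964 to 1126 against 838 and 684 CPM. LIF/STAT3 targets had 713 to 1227 against 1336 and 1719 CPM, and cell cycle genes 8239 to 9587 against 10130 and 10320 CPM. The p53 targets had 1564 to 2005 against 1506 and 1478 CPM, and lipid synthesis enzymes 2300 to 3260 against 1941 and 2190 CPM. Trophoblast markers had 250.3 to 1475 against 106.1 and 92.4 CPM, and 2-cell-like markers 103.5 to 112.6 against 84.85 and 9.24 CPM. With the fibroblast and the primed and formative lists above, these were all the lists without overlap. Sums of the other lists overlapped, those of glycolysis and of DNA methylation and Polycomb among them. No sum was tested. Among the fibroblast markers Sparc, at 2 and 12 counts in 129S1/SvImJ and 15 to 31 in WSB/EiJ, had the lowest p and is named for that (adjusted p = 0.0803). No 2-cell-like or germ layer marker had enough counts to be tested.

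The tested genes of 2 autosomes were shifted together. On chromosome 11, 80.8% of 240 tested genes had a log2 fold change above 0, with a median of 0.38, and on chromosome 6 70.8% of 120 did, with a median of 0.28. The medians of the other 17 autosomes lay between -0.29 (chromosome 16) and 0.01. On chromosome 11 the shift was present in 3 of the 4 WSB/EiJ clones. Against the mean of the 6 129S1/SvImJ iPSC libraries of both media, on the log2(CPM + 20) scale and centred on each library's autosomal median, chromosome 11 stood at 0.44 in clone 12, 0.42 in clone 23 and 0.50 in clone 25, but at 0.02 in clone 28 and 0.04 in the WSB/EiJ ESC. Chromosome 11 took 10.63%, 10.95% and 10.79% of the autosomal gene counts in clones 12, 23 and 25, and 8.09% in clone 28, 7.83% in the WSB/EiJ ESC and 7.69% and 7.86% in the 129S1/SvImJ clones. Along the chromosome, in each of the 4 windows of 30 Mb that hold over 30 tested genes, clones 12, 23 and 25 stood at 0.29 to 0.55 and clone 28 at -0.01 to 0.10. On chromosome 6 the clones stood at 0.42, 0.35, 0.28 and 0.14, and the WSB/EiJ ESC at 0.09. Shifts were also seen outside WSB/EiJ: NOD/ShiLtJ female iPSC clones 7 and 52 in 2iS stood at 0.24 and 0.25 on chromosome 6, above clone 28, and at -0.01 and 0.25 on chromosome 11, which took 7.69% and 9.14% of their autosomal gene counts. Outside these 2 chromosomes the furthest were clone 23 on chromosome 8, at 0.24, clone 28 on chromosome 18, at 0.25, clone 12 on chromosome 12 and clone 28 on chromosome 16, both at -0.24. By the study's methods, the iPSC used for sequencing were karyotyped by counting chromosomes in stained spreads and classed as normal. A line was classed so when a set minimum share of its spreads, not all of them, held the full number. The methods do not state whether the 129S1/SvImJ clones were counted again after the move to 2iS. The files hold no DNA measurement, and a part of copy number in the result was not tested.

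Chromosome 11 held 13 called genes, 11 of them higher in WSB/EiJ (5.42% called), and chromosome 6 held 5 (4.17%). Without these 2 chromosomes 85 of 1860 tested genes were called (4.57%), a comparison added after the shift was seen. Some chromosome 11 genes, named after their values were seen, had lower values in clone 28. The histone gene H3f3b stood at 369 to 438 CPM in clones 12, 23 and 25, 191 CPM in clone 28 and 127 and 129 CPM in 129S1/SvImJ, and the neurofilament gene Nefh at 233 to 476 CPM, 67.5 CPM, and 9.24 and 42.4 CPM. For others clone 28 was as high as the rest: the ubiquitin protease Usp34 had 1364 to 1522 CPM in the 3 clones and 1632 CPM in clone 28 against 702 and 732 CPM, and the autophagy receptor Sqstm1 had 125 to 220 CPM, 360 CPM, and 46.2 and 84.8 CPM. Plscr3, lower in WSB/EiJ, and B4galnt2, with 1 count in it, lie on the same chromosome and went against the shift. Clone 28 on its own against the 129S1/SvImJ clones gave 164 called genes, of which 73 were among the 103 and in the same direction.

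**Figure D5:**
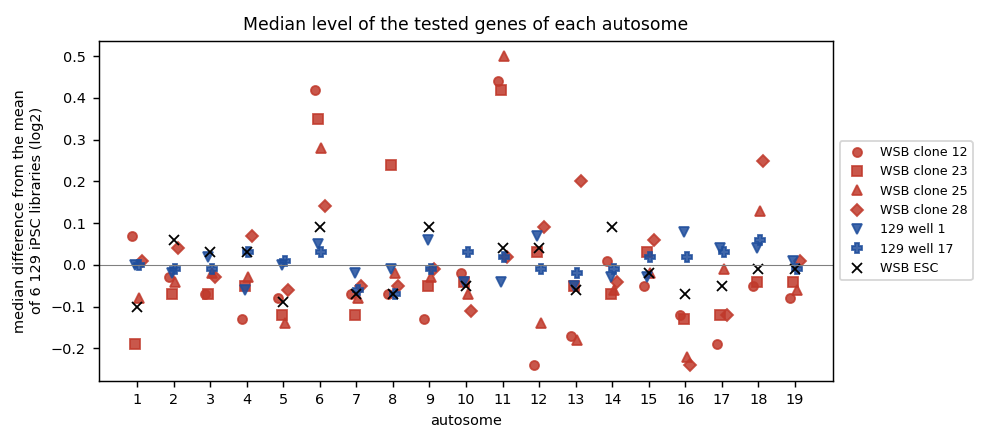
Median over the tested genes of each autosome (horizontal axis) of the difference in log2(CPM + 20) from the mean of the 6 129S1/SvImJ iPSC libraries, 1 point per library, WSB/EiJ clones in red, 129S1/SvImJ clones, which are part of that mean, in blue and the WSB/EiJ ESC as black crosses. WSB/EiJ clones 12, 23 and 25 stand at 0.42 to 0.50 on chromosome 11, while clone 28 and the ESC are near 0.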

How the data were processed

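RNA was sequenced as 19 stranded, paired libraries, 1 per line or clone except that 129S1/SvImJ wells 1 and 17 were sequenced in both media, and the 6 libraries of WSB/EiJ and 129S1/SvImJ iPSC in 2iS were compared. The authors trimmed reads with Trimmomatic, aligned them to GRCm38 with TopHat2 2.1.1 and counted them per gene with HTSeq, and the deposited values are raw counts. Groups follow the titles, since the source names of the records disagree with them. Of 23420 genes, 23037 (98.4%) were found in GENCODE, 1260 under a former symbol, and 211 got only a chromosome from RefSeq. The members and lists were chosen with earlier results of these data known. Counts were tested with edgeR 4.0.16 (filterByExpr with a minimum of 10, TMM, quasi-likelihood F-test) over 2309 genes, Benjamini-Hochberg adjusted over all of them, and the 2220 autosomal genes are reported. Counts of summary categories were left out. CPM used TMM library sizes. Named are, among called genes without overlap between strains, the 10 largest fold changes and 5 lowest p in each direction, the called list members (at most 4 per list), and every tested reprogramming or naive factor. Scripts were tested on simulated data. Alternatives were DESeq2 1.42.0, other scalings, filters, thresholds and sample sets, and leaving out each clone. Pairs of libraries of one strain differed by a chi-square of 1.65 to 3.55 per degree of freedom, so none was a copy of another. Precision is limited by the 95702 to 189587 counts per library.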

Additional observations from a re-analysis of the deposited data

Results flagged for a closer look

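In 7 of the 40 named genes, 1 of the 4 WSB/EiJ clones stood far from the other 3 by Dixon's test, which chance alone does in about 1 in 20 groups of 4. Clone 28 was the one in 5 of them. It had 1182 CPM of Apoe, against 376 to 488 CPM in the other clones, 428 CPM of Klf4, against 250.3 to 270.2 CPM, and 338 CPM of Sall4, against 155 to 165 CPM. It was also the only WSB/EiJ clone with a count of E130003G02Rik and of B4galnt2. The level was 11.3 CPM in each gene, which is 1 read pair and under the floor of 3 counts. As the other 3 clones had no counts of these genes, any count in clone 28 would be flagged. Dixon's test therefore cannot decide whether clone 28 stood apart in them. These genes are included in the 7 and in the 5. The 7 can thus not be set against the 1 in 20, and the 5 overstates the share of clone 28. Peg10 stood at 1255 CPM in clone 23, against 188 to 290.0 CPM in the other clones, and Cwc22 at 1214 CPM in clone 25, against 815 to 830.2 CPM. Clone 28 also differed from the other 3 in passage (20 against 16) and on chromosome 11, and the part of these in the values was not tested.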

How the results depend on the processing

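The 103 calls (61 higher, 42 lower) became 182 (109 and 73) with no filter on low counts, 29 (18 and 11) with at least 10 counts in every library, 262 (151 and 111) with males only and 35 (25 and 10) among genes without opposite-strand exons, where fewer genes were tested. At an adjusted p under 0.1 the genes higher in WSB/EiJ were 92. Leaving out 1 clone gave 30 to 135 calls, 15 to 80 higher and 15 to 55 lower, with the lowest counts without 129S1/SvImJ well 1. A lone remaining clone of a strain was assumed to vary like the other strain's. WSB/EiJ clone 28 alone, added after seeing the data, gave 164 calls, 87 of them lower. Under DESeq2, its size factors, sex as a covariate, the fit of 12 iPSC, uniquely aligned pairs as library size and a minimum log2 fold change of 1 in size, the counts stayed within 1.5 times, at 74 (DESeq2) to 136 (sex as a covariate). Sex as a covariate shared 88 of the 103 calls. In these and the other fits by title, no gene of the 103 that could be tested changed sign. Grouping by the source names instead sets 4 libraries titled 129S1/SvImJ, under the name WSB, against 2 titled NOD/ShiLtJ, under the name 129, so it holds no library titled WSB/EiJ and does not describe that comparison: 89 genes were called, 37 of them higher, 0 were shared with the 103 in the same direction, and 15 named genes had the opposite sign, with log2 fold changes of 4.43 for Slc7a11, 4.89 for E130003G02Rik, 7.40 for B4galnt2, 0.79 for Rps2 and Lamc1, 4.37 for Rpl21, 2.50 for Rpl15, 0.06 for AW495222, 1.76 for Trappc12, 2.65 for A230070E04Rik, 0.31 for 1500004A13Rik, 1.05 for Dopey2, -2.90 for Hydin, -6.96 for Hrnr and -1.64 for Mylpf. No paired analysis was possible because the clone numbers of the strains name different clones and none is shared. At 3 counts, 19.8 to 38.8 CPM, depth limits what can be told from 0.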
